A study of Mus musculus with 49 samples.

Results

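The genes described are 40 type I interferon-stimulated antiviral genes, taken as a list of gene symbols of the known interferon response, with no threshold on these measurements in the rule. The list was chosen with earlier results of these data known. All 40 symbols were rows of the deposited count table, which holds 45252 genes. Type I interferons bind a receptor on the cell surface and, through the kinases Jak1 and Tyk2, activate a complex containing Stat2 and Irf9 that binds a short DNA element at its target genes. The targets include the complex's own subunits, the transcription factor Irf7 that sustains interferon production, effectors that bind or degrade viral RNA, and the brake Usp18. In the brain most cell types can respond, and microglia and astrocytes are known responders in injury and neurodegeneration.

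The samples were neocortex of 49 mice with a mixed background of the strains C57BL/6J and C3H/HeJ, each sequenced as 1 library. Bigenic rNLS8 mice carried both NEFH-tTA, a tetracycline-controlled activator under a neurofilament promoter that is active in neurons, and tetO-hTDP43∆NLS, a human TDP-43 that lacks the signal for nuclear import. Monogenic littermates carried the tetO-hTDP43∆NLS allele without the activator. All mice were kept on doxycycline, which holds the transgene silent, until 25.5 weeks of age, and tissue was taken 3 weeks later, at 28.5 weeks. Injections began at 8 weeks of age, with 5 given before and 1 after the transgene was switched on. The ctrl-PBS group held 17 monogenic mice given PBS (10 females, 7 males) and the TDP-PBS group 10 rNLS8 mice given PBS (4 females, 6 males). The TDP-10+12 group held 10 rNLS8 mice immunized with the combined TDP-43 peptides 10 and 12 (6 females, 4 males), and the TDP-15 group 12 rNLS8 mice immunized with peptide 15 (5 females, 7 males). Immunized mice received 40 µg of ovalbumin-coupled peptide per injection with CpG oligonucleotide. An aluminium adjuvant was used in place of Freund's adjuvant, which the methods list for the first injection and not for the boosters. The methods describe the PBS groups as receiving PBS in place of the peptide conjugates and do not say separately whether the adjuvants were given, so peptide and adjuvant cannot be told apart in a difference between immunized and PBS mice.

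Library totals ran from 17775738 to 21033608 counts. Levels are given as CPM, counts scaled to a common library size after TMM scaling, which corrects each library total for composition, and 3 counts corresponded to 0.139 to 0.165 CPM. Mouse Tardbp, the endogenous copy of the gene carried by the transgene, had a median of 147 CPM in ctrl-PBS and of 120 CPM in TDP-PBS, 121 CPM in TDP-10+12 and 119 CPM in TDP-15. It fell by 0.30, 0.24 and 0.27 on the log2 scale in the 3 rNLS8 groups, with edgeR adjusted p of 1.54e-06, 7.98e-05 and 3.03e-06. The summed level of 5 general neuronal marker genes was 4185 to 7494 CPM in every mouse, which shows neuronal tissue and does not test the region.

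The DNA in front of the start sites shows what several of these genes share. The element that this complex binds has the core GAAANNGAAA, with N for any base, and it was searched on both strands in the RefSeq promoters (GRCm38.p6, 250 bases before to 50 bases after each start site). A promoter was at hand for 29 of the 40 genes. The core was present in 12 of these 29 genes (41.4%) and in 3.99% of all 27025 gene symbols with a promoter, or 3.44% of all 32851 promoters. The 12 genes were Stat2, Eif2ak2, Ifit1, Ifit3, Ifit3b, Oas1a, Oas3, Isg15, Rsad2, Bst2, Ifitm3 and Trim30a. With the last base left free (GAAANNGAA, which includes every match of the longer form) the shares were 15 of 29 genes (51.7%) against 9.76% of all symbols, and the added genes were Samd9l, Ifi44 and Ifi44l. A match is a description of the letters and not a measured binding site. Among the searched genes with no match of either form were Irf7, Irf9 and Oasl2. The 5 stretches shown were picked from genes with a match, and come from a regulator, the ubiquitin-like modifier and effectors. Each is given 5′ to 3′ on the strand of its gene, with the core in capitals, read as its reverse complement where it lies on the opposite strand.
Stat2: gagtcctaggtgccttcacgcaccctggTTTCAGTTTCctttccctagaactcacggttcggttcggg
Isg15: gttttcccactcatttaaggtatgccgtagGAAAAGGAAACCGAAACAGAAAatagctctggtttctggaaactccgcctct
Ifit1: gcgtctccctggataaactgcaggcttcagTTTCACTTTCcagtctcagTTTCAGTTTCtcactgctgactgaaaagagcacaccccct
Rsad2: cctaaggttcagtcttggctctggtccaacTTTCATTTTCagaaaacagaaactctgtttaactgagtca
Bst2: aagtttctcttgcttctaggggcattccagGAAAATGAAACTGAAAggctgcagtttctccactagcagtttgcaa

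In GRCm38.p6 the Stat2 stretch is chr10:128270248-128270315 on the plus strand and holds 1 match, and the Isg15 stretch is chr4:156200845-156200926 on the minus strand and holds 3 overlapping matches. The Ifit1 stretch is chr19:34640755-34640843 on the plus strand and holds 2 separate matches. The Rsad2 stretch is chr12:26456533-26456602 on the minus strand and holds 1 match. The Bst2 stretch is chr8:71537557-71537632 on the minus strand, with 2 overlapping matches. Each of the 5 stretches lies before the start of its own gene in the RefSeq annotation.

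The first question was how the genes stood in rNLS8 mice that received PBS. In TDP-PBS, 39 of the 40 genes were higher than in ctrl-PBS at an adjusted p-value under 0.05 (quasi-likelihood test of edgeR, Benjamini-Hochberg adjusted over 18220 genes), where 21.9% of all genes tested were called higher and 21.6% lower. None of the 40 was called lower. The median log2 fold change was 2.18, from 0.21 for Herc6 to 3.55 for Ifi27l2a, and the median over all genes tested was 0.00 to 2 decimals. In TDP-10+12, 39 genes were higher against a background of 20.8% (20% of genes were called lower), with a median log2 fold change of 1.84. In TDP-15 all 40 were higher against a background of 23.6% (23.2% lower), with a median of 2.24. These 3 comparisons share the ctrl-PBS mice, so their lists of called genes are not independent of each other. A log2 fold change over 1 together with the test was passed by 36, 34 and 36 of the genes, compared with 1.92%, 1.83% and 2.03% of all genes tested.

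The groups were often fully apart. In TDP-PBS, 26 of the 40 genes were higher in each of the 10 mice than in any of the 17 ctrl-PBS mice, where 2.31% of all genes tested were separated this way. The number was 12 in TDP-10+12 (background 2.23%) and 26 in TDP-15 (background 2.45%). Over all 32 rNLS8 mice, 12 genes lay above every ctrl-PBS mouse in every animal, namely Irf9, Eif2ak2, Mx1, Mx2, Ifit3, Oas1b, Usp18, Rsad2, Bst2, Ifitm3, Ifi27 and Lgals3bp, and a further 11 did so in 31 of the 32. Of all genes tested, 1.16% lay above every control in all 32 mice and 1.95% in at least 31. One animal stood apart in the map of all genes and mice, TDP-10+12 mouse 242, in which 12 of the 40 genes exceeded every ctrl-PBS mouse. Each of the other 31 rNLS8 mice had at least 27 such genes.

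**Figure D1:**
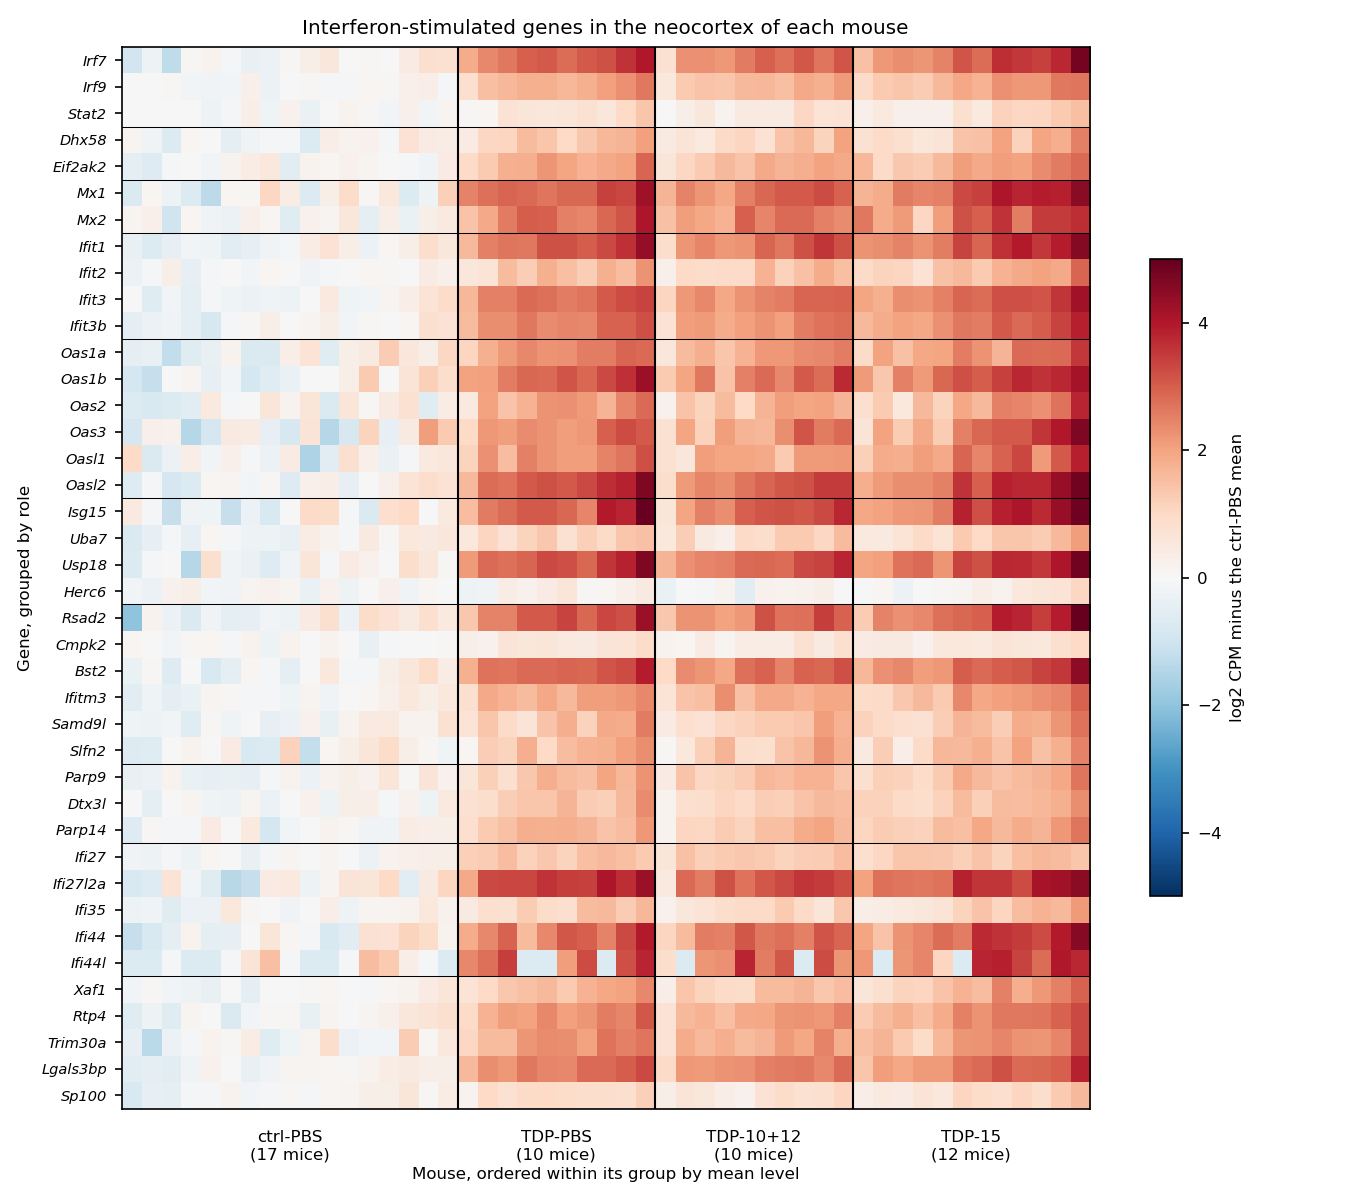
Log2 CPM of the 40 genes (rows, grouped by role) in 49 mice (columns, ordered within each group by their mean level), minus the ctrl-PBS mean of each gene, with white for no difference and red for a higher level. The rNLS8 columns are red in almost every row, Herc6, Cmpk2 and Stat2 are pale, and Ifi44l lacks the red of its neighbours in the 7 rNLS8 mice where it had 0 counts.

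The regulators rose together but by unequal amounts. Irf7, the transcription factor that amplifies interferon production, ran from 1.76 to 7.65 CPM in ctrl-PBS with a median of 4.52. It ran from 15.9 to 71.7 CPM in TDP-PBS (median 36.7), from 7.58 to 39.7 CPM in TDP-10+12 (median 27.6) and from 12.1 to 123 CPM in TDP-15 (median 35.2). All controls were exceeded by 31 of the 32 rNLS8 mice, and the exception was mouse 242, which lay just under the highest ctrl-PBS value. The log2 fold change against ctrl-PBS was 3.01 ± 0.26 (SE) in TDP-PBS, 2.53 ± 0.26 in TDP-10+12 and 3.19 ± 0.25 in TDP-15, with edgeR adjusted p of 7.33e-14, 1.92e-11 and 2.55e-15.

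Irf9, the DNA-binding subunit of the complex, had a narrow range in ctrl-PBS, from 8.87 to 13.6 CPM with a median of 10.8. Its medians were 37.5 CPM in TDP-PBS (19.4 to 68.6), 32.7 CPM in TDP-10+12 (16.0 to 47.8) and 39.2 CPM in TDP-15 (21.1 to 70.2). No rNLS8 mouse overlapped a control, and the log2 fold change was 1.86 ± 0.15, 1.58 ± 0.16 and 1.94 ± 0.15 in the 3 groups (edgeR adjusted p 1.87e-14, 4.9e-12 and 9.68e-16). Stat2, its partner, moved less. It ran from 24.6 to 39.2 CPM in ctrl-PBS (median 31), from 32.8 to 81.9 CPM in TDP-PBS (median 47.9), from 31.9 to 64.6 CPM in TDP-10+12 (median 42.7) and from 37.3 to 89.5 CPM in TDP-15 (median 49.4). Its ranges overlapped, with 23 of 32 rNLS8 mice above every control. The log2 fold change of 0.68 ± 0.13 in TDP-PBS, 0.50 ± 0.13 in TDP-10+12 and 0.81 ± 0.12 in TDP-15 passed the test in each (edgeR adjusted p 1.48e-05, 0.00106 and 1.52e-07).

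**Figure D2:**
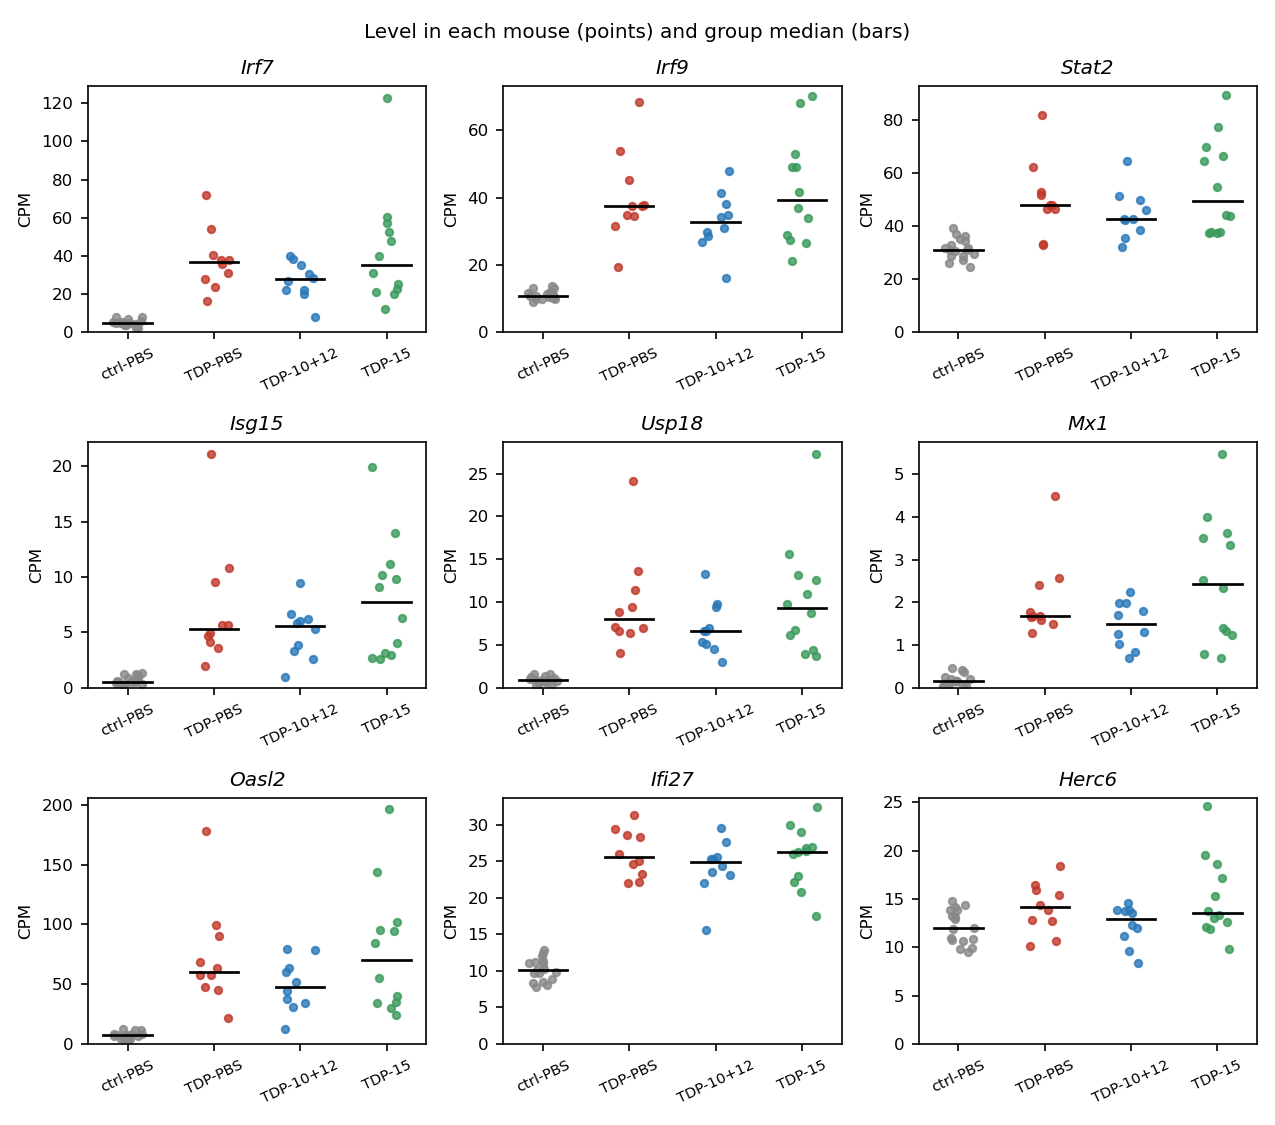
CPM of 9 genes in each mouse (points), with the group medians as bars, for 17 ctrl-PBS, 10 TDP-PBS, 10 TDP-10+12 and 12 TDP-15 mice. Irf9, Usp18, Mx1 and Ifi27 do not overlap ctrl-PBS in any rNLS8 mouse, Stat2 and Herc6 do, and the spread within each rNLS8 group is wide for Irf7, Isg15, Usp18 and Oasl2 but narrow for Ifi27.

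Isg15, a small ubiquitin-like protein that is joined to other proteins, and Usp18, which removes it and blocks the interferon receptor, were among the strongest responders. Isg15 ran from 0.207 to 1.3 CPM in ctrl-PBS (median 0.566), from 1.93 to 21.2 CPM in TDP-PBS (median 5.31), from 0.954 to 9.44 CPM in TDP-10+12 (median 5.59) and from 2.56 to 19.9 CPM in TDP-15 (median 7.71). Of the 32 rNLS8 mice, mouse 242 alone did not lie above every control. The log2 fold change was 3.41 ± 0.35, 2.90 ± 0.36 and 3.56 ± 0.34 in the 3 groups (edgeR adjusted p 1.43e-11, 2.37e-09 and 1.21e-12). Usp18 ran from 0.256 to 1.66 CPM in ctrl-PBS (median 0.854) and had medians of 7.98, 6.64 and 9.26 CPM in TDP-PBS, TDP-10+12 and TDP-15. Its lowest rNLS8 value was 3.01 CPM, so the groups were apart, and the log2 fold change was 3.40 ± 0.28, 2.92 ± 0.28 and 3.45 ± 0.27 (edgeR adjusted p 1.64e-14, 3.35e-12 and 2.46e-15). The other enzymes of this modification changed less. Uba7, which activates Isg15, had log2 fold changes of 1.06, 0.98 and 1.17, all past the test. Herc6, the mouse ligase that attaches Isg15, was the weakest of all 40 genes. It ran from 9.51 to 14.8 CPM in ctrl-PBS (median 12.0) against medians of 14.1, 12.9 and 13.5 CPM in the 3 rNLS8 groups, and the ranges overlapped widely. Its log2 fold change was 0.21 ± 0.11 in TDP-PBS (edgeR adjusted p 0.105) and 0.02 ± 0.11 in TDP-10+12 (adjusted p 0.905), and it passed the test in TDP-15 alone, at 0.32 ± 0.10 (adjusted p 0.00821), while the direct comparison of TDP-10+12 with TDP-15 was not called (-0.30 ± 0.12, adjusted p 0.594). In the annotation a share of 20.9% of the 100-base words of the Herc6 transcript also occurs in transcripts of the gene model Gm45193, so its counts are uncertain.

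The dynamin-like GTPases Mx1 and Mx2, which trap viral ribonucleoproteins, were near the detection limit in controls. Mx1 had 0 to 9 counts per ctrl-PBS mouse, at most 0.455 CPM, and 13 to 108 counts per rNLS8 mouse, with medians of 1.68, 1.5 and 2.43 CPM in TDP-PBS, TDP-10+12 and TDP-15. No rNLS8 mouse overlapped the controls, and the log2 fold change was 3.53 ± 0.32, 3.06 ± 0.33 and 3.82 ± 0.31 (edgeR adjusted p 3.87e-13, 7.06e-11 and 5.38e-15). Mx2 rose from a median of 0.699 CPM (0.259 to 0.978) to medians of 4.73, 3.75 and 5.01 CPM, with a log2 fold change of 2.97 ± 0.25, 2.50 ± 0.26 and 3.04 ± 0.24 (adjusted p 3.52e-14, 1.51e-11 and 3.85e-15). RefSeq lists Mx1, Mx2 and Oas1b of the C57BL/6J reference genome as transcribed pseudogenes, so reads counted for them show transcript and do not show which allele of the mixed background it came from.

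All 4 Ifit genes, whose products bind viral RNA ends or modulate signalling, rose in all 3 groups. Ifit1 ran from 1.70 to 5.24 CPM in ctrl-PBS (median 2.56) and had medians of 24.9 CPM in TDP-PBS (8.82 to 60.4), 16.8 CPM in TDP-10+12 (5.17 to 34.9) and 26.2 CPM in TDP-15 (13.5 to 69.5). Only mouse 242 overlapped the controls, and the log2 fold change was 3.16 ± 0.26, 2.67 ± 0.26 and 3.32 ± 0.26 (edgeR adjusted p 2.11e-14, 5.81e-12 and 9.92e-16). Ifit3 rose from a median of 7.35 CPM (5.28 to 15.2) to medians of 53.3, 44.3 and 59.2 CPM, with no overlap in 32 mice and log2 fold changes of 2.75 ± 0.20, 2.41 ± 0.20 and 2.95 ± 0.20. Ifit2 was the lowest of the family at 1.5 ± 0.17, 1.25 ± 0.17 and 1.68 ± 0.16. Ifit3 and Ifit3b are near copies, with 31.7% of the 100-base words of Ifit3 also present in Ifit3b, so the division of reads between them is uncertain.

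The oligoadenylate synthetases make a messenger that activates the RNA-degrading enzyme RNase L, and the Oasl proteins are their relatives. All 6 genes tested higher in all 3 groups. Oasl2 ran from 3.78 to 12.6 CPM in ctrl-PBS (median 7.24) and had medians of 60.4 CPM in TDP-PBS (21.4 to 178), 48.0 CPM in TDP-10+12 (12.6 to 79.4) and 69.9 CPM in TDP-15 (24.3 to 196). Every rNLS8 mouse but mouse 242 was above the controls, and the log2 fold change was 3.32 ± 0.29, 2.76 ± 0.29 and 3.42 ± 0.28 (edgeR adjusted p 8.74e-14, 3.21e-11 and 1.03e-14). Oas1b rose from a median of 0.352 CPM (0.110 to 1.05) to medians of 3.30, 2.68 and 3.99 CPM, without overlap. Oas2 had the smallest change of the family in TDP-PBS, at 1.98 ± 0.26, and in TDP-10+12, at 1.51 ± 0.26, and its value of 2.13 ± 0.25 in TDP-15 was likewise the lowest of the 6. Oas3 was sparse, at 0 to 20 counts in ctrl-PBS, and 18 of 32 rNLS8 mice exceeded every control. Of the 100-base words of Oas1a, 40.9% recur in its paralog Oas1g, so its counts are uncertain.

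Among the other effectors, Rsad2 (viperin, which makes a chain-terminating nucleotide) and Bst2 (tetherin, which holds budding virus at the membrane) changed most. Rsad2 rose from a median of 0.815 CPM (0.150 to 1.84) to medians of 8.40 CPM in TDP-PBS (2.46 to 20.1), 5.68 CPM in TDP-10+12 (2.46 to 11.1) and 7.62 CPM in TDP-15 (2.35 to 35.6). Bst2 rose from a median of 1.43 CPM (0.790 to 2.78) to medians of 10.9, 9.31 and 11.5 CPM in the 3 groups. Neither gene overlapped the controls in any rNLS8 mouse. The log2 fold changes were 3.09 ± 0.31, 2.59 ± 0.32 and 3.41 ± 0.30 for Rsad2 and 2.99 ± 0.24, 2.59 ± 0.24 and 3.04 ± 0.23 for Bst2, all with edgeR adjusted p of 1.94e-09 or less. Cmpk2, a mitochondrial nucleotide kinase that lies next to Rsad2, moved little in comparison. It ran from 14.5 to 21.5 CPM in ctrl-PBS (median 19.2) and had medians of 28.2, 24.4 and 26.8 CPM, with log2 fold changes of 0.55 ± 0.07, 0.40 ± 0.07 and 0.56 ± 0.07. Because its spread was small, 29 of 32 rNLS8 mice still lay above every control. Ifitm3, Samd9l and Slfn2 lay between, at 1.87, 1.55 and 1.49 in TDP-PBS.

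The RNA-binding kinase Eif2ak2, also called PKR, which halts translation, rose by 1.95 ± 0.17 in TDP-PBS, 1.58 ± 0.18 in TDP-10+12 and 1.99 ± 0.17 in TDP-15 on the log2 scale. Its levels ran from 1.76 to 4.08 CPM in ctrl-PBS and from 4.32 to 21.6 CPM in rNLS8 mice, without overlap. Dhx58, an RNA helicase that tunes RIG-I-like sensing, rose by 1.40 ± 0.20, 1.15 ± 0.20 and 1.49 ± 0.19. The ADP-ribosyltransferases Parp9 and Parp14 and the ubiquitin ligase Dtx3l, a partner of Parp9, formed a uniform group, with log2 fold changes of 1.55, 1.62 and 1.45 in TDP-PBS, 1.38, 1.38 and 1.14 in TDP-10+12, and 1.61, 1.71 and 1.47 in TDP-15. Parp9 and Dtx3l overlap on chromosome 16, so without a stated strand their reads cannot be fully told apart.

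Of the genes named Ifi, Ifi27l2a and Ifi44l had the largest changes in TDP-PBS and Ifi35 the smallest. Ifi27l2a rose from a median of 0.654 CPM (0.161 to 1.32) to medians of 7.32 CPM in TDP-PBS (2.41 to 13.5), 5.98 CPM in TDP-10+12 (0.853 to 7.92) and 7.19 CPM in TDP-15 (2.61 to 15.6). The log2 fold change was 3.55 ± 0.28, 3.01 ± 0.29 and 3.5 ± 0.27 (edgeR adjusted p 4.16e-15, 1.61e-12 and 1.7e-15), and mouse 242 alone overlapped the controls. Ifi44l was unlike the rest, because it was absent from some animals of every group. It had 0 counts in 7 of 17 ctrl-PBS, 3 of 10 TDP-PBS, 2 of 10 TDP-10+12 and 2 of 12 TDP-15 mice, and at most 7 counts in ctrl-PBS. The other 25 rNLS8 mice had up to 2.54 CPM, and 23 of them exceeded every control. Its log2 fold change was 3.23 ± 0.67, 3.05 ± 0.68 and 3.60 ± 0.64, with the largest standard errors of the 40 genes. Ifi35 rose by 1.18 ± 0.17, 0.89 ± 0.17 and 1.21 ± 0.16.

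Lgals3bp, a secreted galectin-binding protein, ran from 20.4 to 39.8 CPM in ctrl-PBS (median 31.8) and had medians of 170 CPM in TDP-PBS (89.5 to 291), 151 CPM in TDP-10+12 (56.4 to 207) and 203 CPM in TDP-15 (78 to 429). No rNLS8 mouse overlapped a control, and the log2 fold change was 2.60 ± 0.18, 2.31 ± 0.18 and 2.69 ± 0.18 (edgeR adjusted p 5.29e-17, 3.38e-15 and 3.27e-18). Rtp4, a transporter chaperone, rose by 2.21 ± 0.20, 1.90 ± 0.20 and 2.35 ± 0.19. Sp100, a component of nuclear bodies, rose by 0.86 ± 0.12, 0.63 ± 0.12 and 0.88 ± 0.12, with 23 of 32 rNLS8 mice above every control. Xaf1, which antagonizes an apoptosis inhibitor, and the ubiquitin ligase Trim30a rose by 1.63 and 2.14 in TDP-PBS.

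The order of response in TDP-PBS ran from Ifi27l2a, Mx1, Isg15, Usp18 and Oasl2, with fitted fold changes of 11.7, 11.5, 10.6, 10.6 and 10.0, to Uba7, Sp100, Stat2, Cmpk2 and Herc6, with 2.09, 1.82, 1.60, 1.47 and 1.16. Of the 39 pairs of neighbours, 37 differed by less than their combined standard error, computed as if the genes were independent. Neighbours in a sorted list lie close by construction, so this does not tell a gradient from steps, and exact ranks are uncertain. Genes of one family were spread along the order. Ifit1 stood at 8.91 and Ifit2 at 2.83, and Rsad2 at 8.54 and its neighbour Cmpk2 at 1.47 lay near opposite ends. Median counts in ctrl-PBS were 13, 3, 11, 17 and 141 for Ifi27l2a, Mx1, Isg15, Usp18 and Oasl2. They were 54, 114, 605, 370 and 238 for Uba7, Sp100, Stat2, Cmpk2 and Herc6. The part of the control level in the order was not tested. The plot of the changes shows the TDP-10+12 value on the left for all 40 genes.

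**Figure D3:**
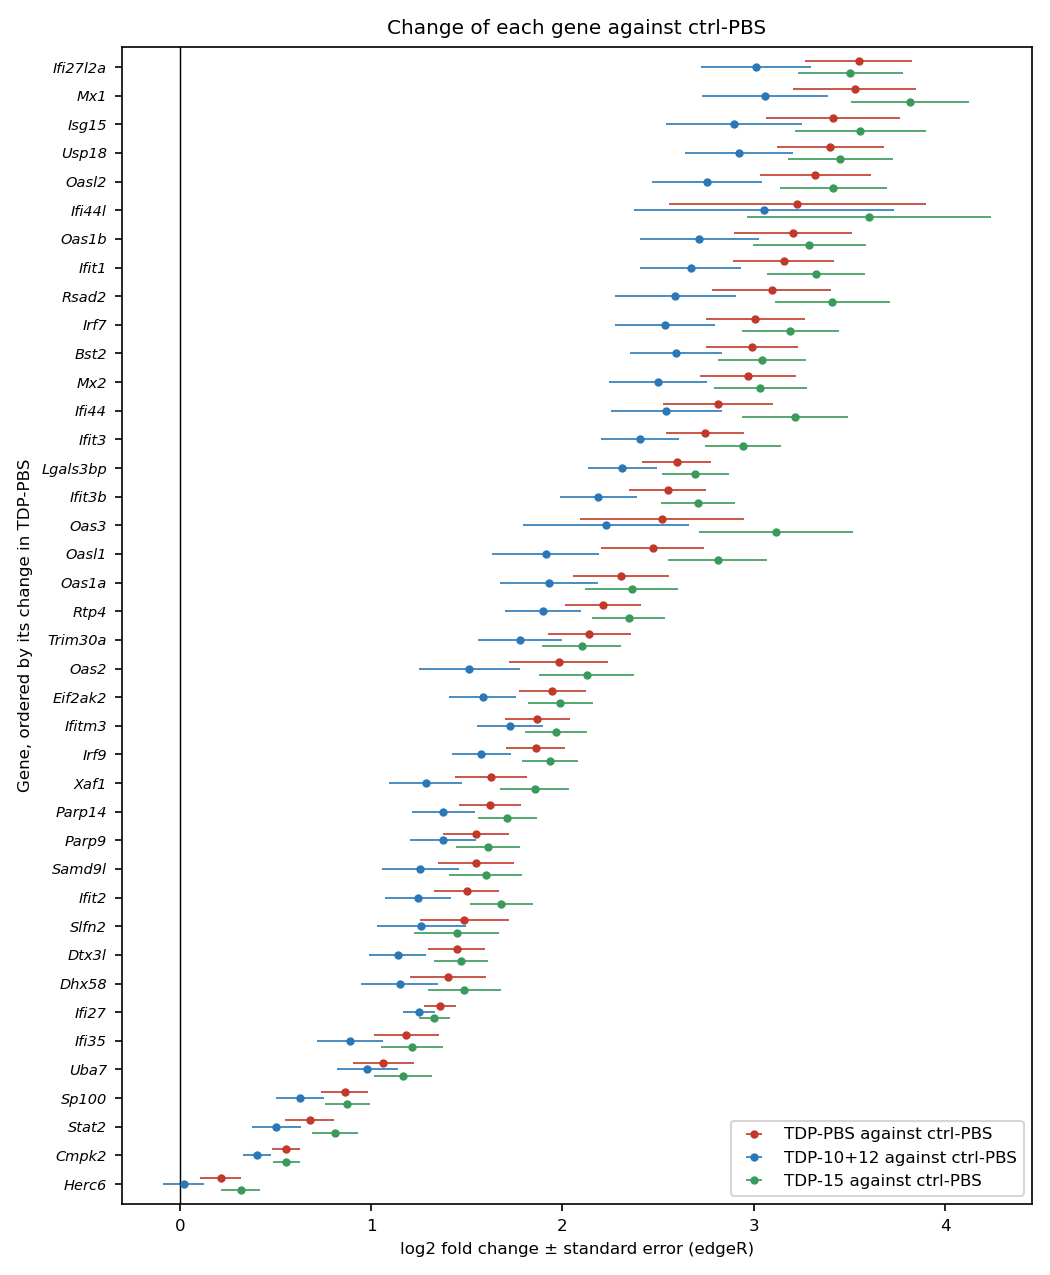
Log2 fold change against ctrl-PBS (points) with its standard error (bars) for 40 genes in TDP-PBS, TDP-10+12 and TDP-15, ordered by the value in TDP-PBS. The 3 comparisons share their 17 control mice. TDP-10+12 lies left of the other 2 groups for every gene, by less than the test could call.

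The design also asks whether immunization changed these genes in rNLS8 mice. No member was called at an adjusted p under 0.05 in TDP-10+12 against TDP-PBS, in TDP-15 against TDP-PBS or in TDP-10+12 against TDP-15 by edgeR, DESeq2 or limma-voom, and edgeR called 0% of all genes in either direction in each comparison. The log2 fold changes in TDP-10+12 against TDP-PBS were negative for all 40 genes, with a median of -0.31 (median of all genes 0.00 to 2 decimals), and ranged from -0.57 for Oasl2 to -0.08 for Uba7. Without TDP-10+12 mouse 242 the median was -0.23. An unadjusted p under 0.05 was reached by 1 of the 40 members (0 without mouse 242) and by 5.23% of all genes. In TDP-15 against TDP-PBS 36 of 40 were positive, with a median of 0.10 that became -0.04 without TDP-15 mouse 126, and 0 members and 3.03% of all genes had such a p. Since the genes moved together from mouse to mouse, as described below, a common sign over 40 genes is not 40 independent observations.

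The immunized groups were also compared with each other. In TDP-10+12 against TDP-15 the median log2 fold change was -0.44 (-0.35 without TDP-10+12 mouse 242 and -0.28 without TDP-15 mouse 126), from -0.90 ± 0.27 for Oasl1 to -0.08 for Ifi27, and 20 of 40 members had an unadjusted p under 0.05, as had 6.83% of all genes. The smallest edgeR adjusted p of a member was 0.397. The count of 20 rested on few animals: it was 10 without TDP-10+12 mouse 242, which had the lowest mean level, and 3 without TDP-15 mouse 126, which had the highest. Irf7 gave -0.66, with an approximate 95% interval of -1.18 to -0.14, in this comparison, and -0.47 (-1.02 to 0.07) in TDP-10+12 against TDP-PBS. A lack of calls does not show that the groups were alike. The group median of CPM was lowest in TDP-10+12 for 39 of the 40 genes and highest in TDP-15 for 26. Since the genes moved together, these are not separate observations, and the share over all genes was not computed.

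Females and males among the 32 rNLS8 mice were compared with the group as covariate. By edgeR 0 of 40 members were called and 0 had an unadjusted p under 0.05, by DESeq2 and limma-voom likewise 0 were called, and over all genes 0.0451% were higher and 0.0282% lower in females. The median log2 difference of the members, female minus male, was -0.04.

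The spread between mice of one group was large, and it was shared between genes. Averaged over the 40 genes, the level above the ctrl-PBS mean ran on the log2 scale from -0.42 to 0.46 in ctrl-PBS, from 1.10 to 2.95 in TDP-PBS, from 0.66 to 2.23 in TDP-10+12 and from 1.24 to 3.34 in TDP-15. The ranges of the rNLS8 groups overlapped in part, with the highest TDP-10+12 mouse below the highest mice of the other groups, and none overlapped ctrl-PBS. To describe how the genes varied together, each gene's log2 CPM was correlated with each other's over the 32 rNLS8 mice after removing group means. The median Pearson's r over the 780 pairs was 0.82, and 720 pairs (92.3%) exceeded 0.5, compared with 1.46% of all pairs of genes tested. Within single groups the median r was 0.82 in 10 TDP-PBS, 0.75 in 10 TDP-10+12 and 0.88 in 12 TDP-15 mice. It was 0.31 in the 17 ctrl-PBS mice, in which several of the genes had few counts, and the part of this was not tested. Pairs over 0.5 made up 88.2%, 87.6% and 94.6% in the rNLS8 groups, compared with 9.75%, 9% and 6.29% of all pairs. In ctrl-PBS they made up 26.4%, compared with 3.43% of all pairs. These are descriptions over mice whose genes share a library, its total and its scaling, and the pairs are not independent. Without mice 242 and 126 the median was 0.77.

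**Figure D4:**
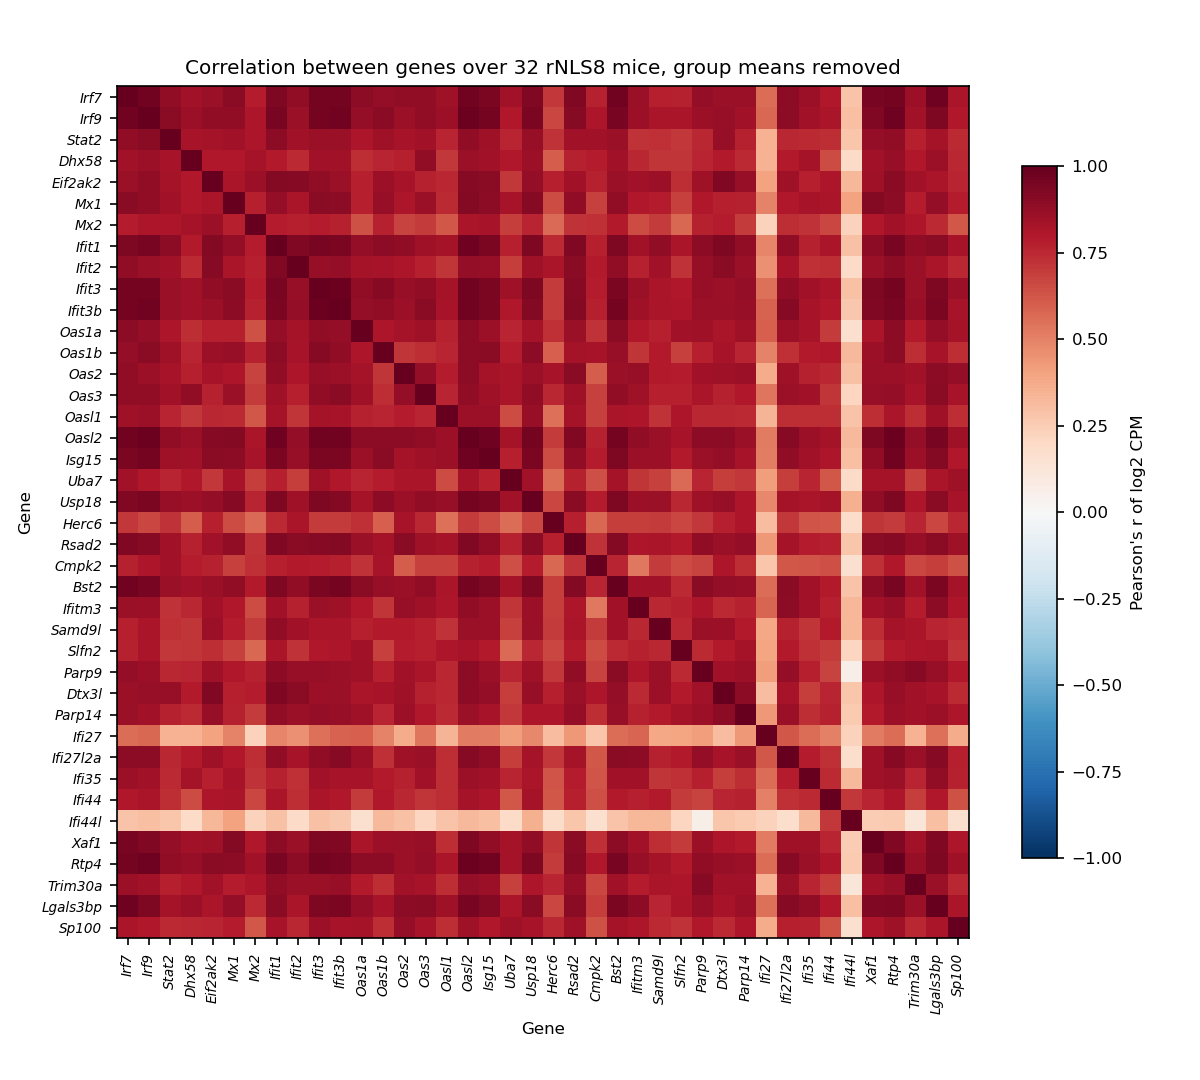
Pearson's r between the log2 CPM of each pair of 40 genes over 32 rNLS8 mice, after subtracting group means, from -1 (blue) to 1 (red). Nearly the whole matrix is red (median 0.82), and the rows of Ifi44l (median 0.28) and Ifi27 (median 0.48) are pale.

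The closest pairs were Oasl2 with Rtp4 (r = 0.98), whose genes lie on different chromosomes, and the near copies Ifit3 and Ifit3b (r = 0.98), where shared reads could raise the value. Oasl2 had the highest median r with the other members, 0.89. At the other end stood Ifi44l, at 0.28, Ifi27, at 0.48, and Herc6, at 0.70. Ifi44l was closest to Ifi44 (r = 0.70), its neighbour on chromosome 3.

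Irf7 served as an index for the tracking of the other 39 genes. With group as covariate, 37 of 39 rose with Irf7 over the 32 rNLS8 mice (edgeR's quasi-likelihood test with adjustment over 17749 genes), where 2.29% of all genes were called in this direction and 0.524% in the other. The median slope was 0.72, meaning the log2 change of a gene per log2 unit of Irf7. The genes scaled differently. Isg15 had the steepest slope, 1.22 ± 0.08, followed by Oas3 at 1.18 ± 0.11, Oasl2 at 1.11 ± 0.06 and Rsad2 at 1.04 ± 0.07, so Isg15 changed by 2.32-fold for each doubling of Irf7. Irf9 had a slope of 0.63 ± 0.03 and Stat2 of 0.46 ± 0.04. The shallowest were Sp100 at 0.35 ± 0.05, Herc6 at 0.29 ± 0.05, Cmpk2 at 0.21 ± 0.03 and Ifi27 at 0.16 ± 0.05. Herc6, which hardly differed between groups, passed the test for tracking Irf7 (edgeR adjusted p 0.000415), a call that was lost without mice 242 and 126 (slope 0.27). The 2 genes that did not pass were Ifi44l (adjusted p 0.303) and Ifi27 (adjusted p 0.0536).

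Ifi27 combined a clear difference between genotypes with little variation among rNLS8 mice. Its levels ran from 7.80 to 12.8 CPM in ctrl-PBS and from 22 to 31.4 CPM in TDP-PBS, 15.6 to 29.5 CPM in TDP-10+12 and 17.5 to 32.4 CPM in TDP-15. The groups did not overlap the controls. The log2 fold change was 1.36 ± 0.08, 1.25 ± 0.08 and 1.33 ± 0.08, with the smallest adjusted p of the 40 genes in each comparison (edgeR, 7.27e-19, 2.21e-17 and 2.32e-19). The coefficient of variation over the 32 rNLS8 mice was 14.7% for Ifi27, the lowest of the 40, followed by 15.1% for Cmpk2. It was 59.6% for Irf7 and 69.8% for Isg15. The annotated span of Ifi27 on chromosome 12 lies within that of Ifi27l2a, so some reads could belong to either gene.

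**Figure D5:**
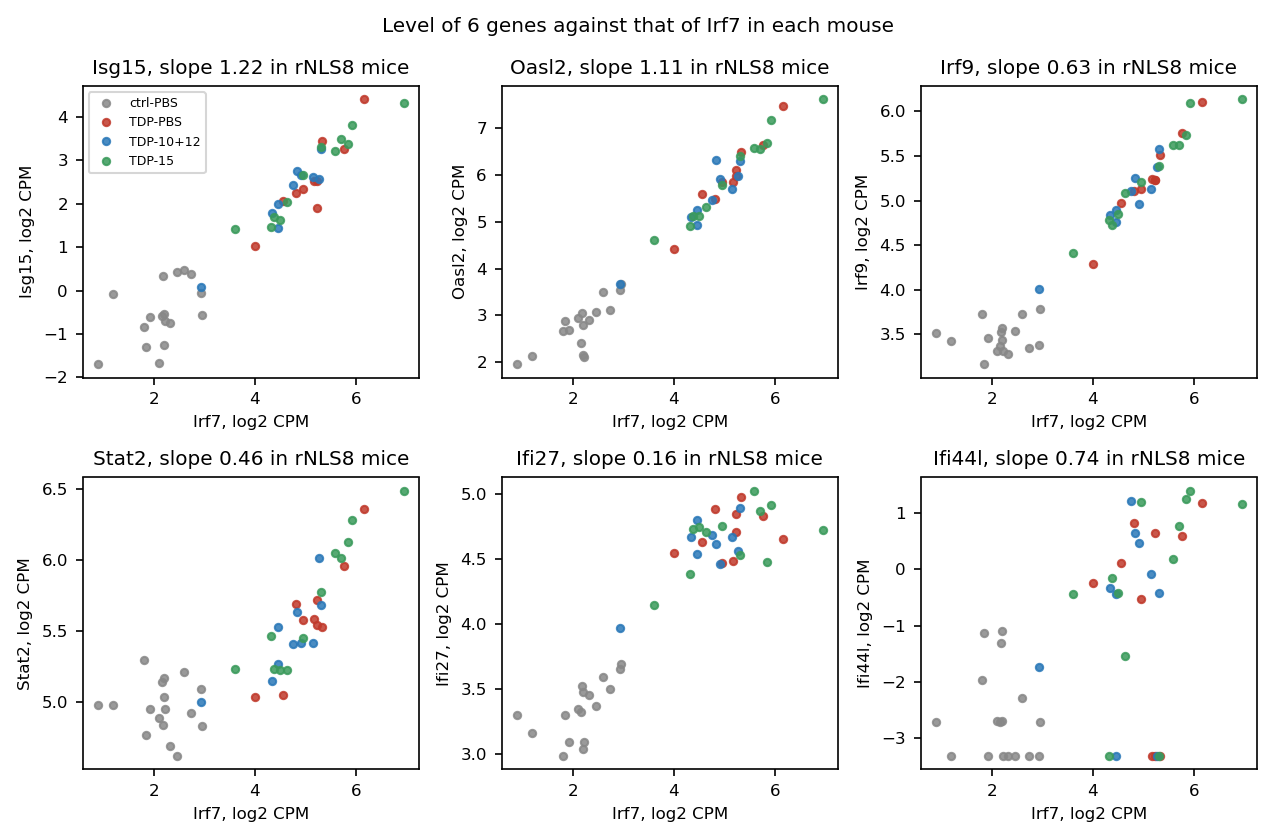
Log2 CPM of 6 genes (vertical axes) against log2 CPM of Irf7 (horizontal axes) in 49 mice (points) coloured by group, with the slope over the 32 rNLS8 mice in each panel's title. Isg15 and Oasl2 climb steeply, Irf9 and Stat2 less so, Ifi27 is nearly flat among rNLS8 mice while it is apart from ctrl-PBS, and Ifi44l splits into mice with and without counts.

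Outside the 40 genes, the 5 that tracked Irf7 with the smallest p were Lgals9 (slope 0.53 ± 0.04), Parp10 (0.70 ± 0.05), Ube2l6 (0.48 ± 0.04), Ddx58 (0.56 ± 0.04) and Irgm1 (0.60 ± 0.05). Ube2l6 is the conjugating enzyme for Isg15 and Ddx58 encodes the RNA sensor RIG-I. All 5 had edgeR adjusted p of 5.84e-11 or less.

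The rest of the pathway was read from fixed lists. Over all genes tested, 21.9% were called higher and 21.6% lower in TDP-PBS, 20.8% and 20% in TDP-10+12, and 23.6% and 23.2% in TDP-15. The lists are small, so counts near these shares are not read as results about them. None of the 21 interferon ligand genes passed the filter on low counts. Of these, 7 had 0 counts in all 49 mice, Ifnb1 among them, and the highest count of any ligand gene in any mouse was 4. A count of 0 allows up to 0.139 to 0.165 CPM, and intervals and limits of this kind cover counting error only. Of 6 receptor genes, 4 were higher in TDP-PBS, led by Ifngr2 (0.83 ± 0.05) and Ifngr1 (0.55 ± 0.08), which form the interferon-gamma receptor. The type I receptor subunit Ifnar2 rose by 0.35 ± 0.06, and Ifnar1 gave -0.06 ± 0.04 (adjusted p 0.213). Of 9 kinases and transcription factors, 5 were higher in each rNLS8 group, among them Irf8 (0.92 ± 0.11 in TDP-PBS), while 0 were lower in TDP-PBS, 3 in TDP-10+12 (Irf3, Jak2 and Tyk2) and 2 in TDP-15 (Irf3 and Jak2). Jak1 (-0.07), Tyk2 (-0.02) and Irf3 (-0.17) did not pass in TDP-PBS. Of 11 nucleic acid sensors and adaptors, 8 were higher, led by Zbp1 (2.66 ± 0.33) and Ddx58 (1.79 ± 0.15), and Tbk1 was lower (-0.20 ± 0.05). Of 5 inhibitors tested, 2 were higher, Ptpn6 (0.98 ± 0.16) and Samhd1 (0.27 ± 0.08), and of 6 genes induced mainly by interferon-gamma 4 were higher, led by Cxcl9 (2.88 ± 0.58) and Iigp1 (1.66 ± 0.26), while Ido1 was lower in TDP-15 (-0.63 ± 0.26) and Ifng itself had at most 2 counts in any mouse.

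Cell type markers were read in the same comparison, in which 21.9% of all genes were called higher and 21.6% lower. Of 8 microglial markers, 5 were higher in TDP-PBS, led by C1qa (1.01 ± 0.14), while P2ry12 gave -0.09 ± 0.06 (adjusted p 0.206) and was lower in TDP-10+12 (-0.18 ± 0.06) and TDP-15 (-0.15 ± 0.06). Their summed level was 236 to 277 CPM in ctrl-PBS, 290 to 408 CPM in TDP-PBS, 242 to 390 CPM in TDP-10+12 and 254 to 503 CPM in TDP-15. Among rNLS8 mice 5 of the 8 also rose with Irf7, with C1qa steepest at 0.44 ± 0.07, which is less than the median slope of 0.72 over the 39 genes. Of 5 astrocyte markers, Gfap was higher (1.64 ± 0.18) and Gja1 lower, and of 5 neuronal markers Snap25 (-0.68 ± 0.04), Syt1 and Gad1 were lower. Of 5 endothelial markers Ly6c1 was higher, so the astrocyte and endothelial counts were close to those shares, and none of 4 oligodendrocyte markers passed the test. The defining T cell genes Cd3d, Cd3e and Cd8a had at most 8 counts in any mouse, and of the T and NK cell list Cd4 alone could be tested, which was lower (-1.19 ± 0.27). Of 5 genes of blood monocytes and neutrophils, Ly6c2 and S100a9 could be tested, neither passed in TDP-PBS, and S100a9 was lower in TDP-15 (-1.73 ± 0.68). Of 3 genes used for plasmacytoid dendritic cells, Siglech, which microglia also express, was higher (0.36 ± 0.07), Bst2 is a member described above, and Ccr9 could not be tested. In bulk tissue more cells of a type and more RNA per cell cannot be told apart, and the part of these shifts in the changes of the interferon-stimulated genes was not tested.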

How the data were processed

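RNA of neocortex from 49 mice was sequenced as paired-end reads of 100 bases, and the authors deposited 1 table of whole-number counts per gene, not normalized, with the mouse build GRCm38.p6 (mm10). The submitters' processing notes name Bowtie, Bowtie2, HISAT, HISAT2 and RSEM without roles, and the counting rule and strand setting are not given in the sources used here. Every column was matched to a mouse by its label. The members, gene lists and index gene were chosen with earlier results of these data known. Counts were filtered with filterByExpr, scaled by TMM and fitted with edgeR 4.0.16 (quasi-likelihood test, 1 model over 4 groups, Benjamini-Hochberg adjustment over all genes tested, threshold 0.05), which kept 18220 genes. Slopes on Irf7's log2 CPM (prior count 2) and the sex comparison were fitted in the 32 rNLS8 mice with the group as covariate. Alternatives were DESeq2 1.42.0, limma-voom 3.58.1, surrogate variables from sva 3.50.0, other scalings and filters, and fits without single mice. The code was tested on simulated data. Values were given by a rule for Irf7, Irf9, Stat2, Isg15 and Usp18 and, in each role group, for the 2 genes with the largest and the 1 with the smallest change in TDP-PBS. Ifi27, Oas3 and Oasl1, and others given by value alone, were named after their values were seen. Each mouse is a separate animal. Intervals cover the spread between mice. Some genes of the fixed lists are not reported here by name.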

Additional observations from a re-analysis of the deposited data

Results flagged for a closer look

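A gene's highest or lowest mouse was compared with the rest of its group in the 2 groups of 10 mice, for 82 sets of values. Single genes were compared as CPM, and the mean of the 40 genes on the log2 scale. By chance about 1 in 20 is marked if values are normally distributed, which CPM need not be. The ctrl-PBS and TDP-15 groups were not examined because of their size. TDP-PBS mouse 217 was marked as far above the other mice of its group in CPM for 11 genes. On the log2 scale its mean level over the 40 genes, 2.95 against 2.46 in the next mouse, was not marked. Its levels were 21.6 CPM for Eif2ak2 (next highest mouse 13.2), 4.49 CPM for Mx1 (2.56), 11.9 CPM for Mx2 (6.37) and 60.4 CPM for Ifit1 (36.1). They were 178 CPM for Oasl2 (99.8), 21.2 CPM for Isg15 (10.9), 24.1 CPM for Usp18 (13.6) and 20.1 CPM for Rsad2 (10.6). They were 23.0 CPM for Bst2 (14.5), 19.5 CPM for Samd9l (11.8) and 22.6 CPM for Dtx3l (14.4). TDP-PBS mouse 251 had the lowest Sp100, at 6.63 CPM, against 10.1 CPM in the next mouse. TDP-10+12 mouse 242 had 56.4 CPM of Lgals3bp against 128 CPM in the next mouse, and its mean log2 level over the 40 genes was 0.66 above the ctrl-PBS mean against 1.42 in the next mouse. Since the genes move together, the 11 values of mouse 217 are not separate events, and their cause was not tested.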

How the results depend on the processing

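The counts of genes changed against ctrl-PBS kept their direction and stayed at 38 to 40 under other scalings, DESeq2, limma-voom, a sex covariate, 2 surrogate variables, no filter and fits of only the groups compared. Requiring 10 counts in every mouse left 27 of the 40 genes to test, of which 26, 26 and 27 were higher. Between rNLS8 groups the count stayed at 0 in every alternative. In TDP-10+12 against TDP-15 the number of genes with an unadjusted p under 0.05, 20, was 11 by limma-voom, 12 with only those groups, and, in alternatives chosen after seeing the data, 10 without TDP-10+12 mouse 242 and 3 without TDP-15 mouse 126. Between 36 and 38 genes tracked Irf7, and the median pairwise correlation ran from 0.77 to 0.83. Of the single genes, Herc6 reversed to -0.013 in TDP-10+12 with 2 surrogate variables and passed the test in TDP-PBS with only the groups compared (0.22). The slope of Ifi27 passed with 10 counts in every mouse (0.16), DESeq2 (0.16), limma-voom (0.17) and a sex covariate (0.17). The cause was not tested. Leaving out each mouse in turn was not run, since the groups held 10 or more mice. No paired analysis was possible because each mouse has its own number and the groups share none. Few counts limit Ifi44l, Mx1 and Oas3 in ctrl-PBS.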
